A study of Homo sapiens with 6 samples.

Results

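The genes described here are NTS, which encodes the precursor of neurotensin and neuromedin N, its receptor gene NTSR1, and the neuroendocrine genes CHGA, CHGB, SCG2, SYP, ENO2, NCAM1 and INSM1. They are 9 of the 19899 genes of the deposited table, matched by symbol. NTS was picked from these same samples, as an abundant transcript with a lower level after BRG1 transfection, so its values are a description with no test. The other 8 genes were added by name as markers of neuroendocrine cells or as the receptor, with results of these data known.

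RNA-seq was performed on COV434 cells. This established line from the ovary is treated by the study as a model of SCCOHT, a rare hypercalcemic small cell cancer of that organ. Such tumors lack BRG1, the product of SMARCA4 and a motor subunit of SWI/SNF complexes, which use ATP to move nucleosomes. Parental COV434 cells received an empty pCDNA3-neo vector (Control, n = 3) or PBJ5-BRG1 (BRG1, n = 3), and both groups also received pBABE-puro for puromycin resistance. All 6 samples were put on puromycin at 2 to 3 µg/ml 24 hours after transfection and were harvested after 3 days as pools of resistant cells of 1 line. BRG1 therefore came from a plasmid, and its level in single cells was not measured. In bulk RNA, fewer cells that express a gene and less RNA per cell cannot be told apart.

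Neurotensin is a short peptide released by endocrine cells of the gut and by neurons, and it signals mainly through the G protein-coupled receptor encoded by NTSR1. Neuroendocrine cells store such peptides in dense-core granules together with chromogranins and secretogranins, cut the precursors with prohormone convertases, and release them by calcium-triggered exocytosis. The proteins of CHGA, SYP, NCAM1 (CD56), ENO2 and INSM1 are used in pathology to recognise neuroendocrine tumors.

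RefSeq promoter sequence was at hand for 5 of the 9 genes, NTS, NTSR1, CHGA, SYP and ENO2. The 250 bases before the start of NTS and of CHGA are shown because both genes encode granule peptides or their precursors and each has a short match in the same part of the window. The windows lie at chr12:85874045-85874294 and chr14:92922900-92923149, both on the plus strand of GRCh38.p14. Capitals mark the cyclic AMP response element TGACGTCA in CHGA and, in NTS, TGACATCA, which is 1 base apart from it.
NTS: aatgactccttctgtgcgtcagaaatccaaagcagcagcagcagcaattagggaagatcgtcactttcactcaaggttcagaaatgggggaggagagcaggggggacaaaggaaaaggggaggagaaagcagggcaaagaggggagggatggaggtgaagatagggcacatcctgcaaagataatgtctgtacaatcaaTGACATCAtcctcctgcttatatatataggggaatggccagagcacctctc
CHGA: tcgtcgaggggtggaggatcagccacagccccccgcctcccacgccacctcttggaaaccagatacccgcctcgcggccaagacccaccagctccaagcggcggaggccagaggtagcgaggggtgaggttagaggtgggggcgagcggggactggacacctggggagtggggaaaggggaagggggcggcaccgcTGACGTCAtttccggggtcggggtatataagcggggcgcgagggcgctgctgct
The match in NTS covered 51 to 44 bases before the start and that in CHGA 54 to 47 bases before it. On both strands, TGACATCA was found in 2.45% and TGACGTCA in 1.77% of 27305 RefSeq promoter windows of this length. The AP-1 motif TGANTCA was in the ENO2 window alone among the 5, as TGACTCA from 94 to 88 bases before the start that RefSeq gives, and in 6.6% of all windows. That start lies 835 bases inside the GENCODE span of ENO2, so the ENO2 window is itself within the gene by that annotation. The E-box CAGCTG was in none of the 5 windows and in 13.8% of all windows. TGACGTCA and TGANTCA share letters but neither contains the other. No binding or accessibility was measured in these samples, so a match is a description of sequence only.

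Estimated counts totalled 37952466 to 61519212 in Control and 29699741 to 63613710 in BRG1 samples, BRG1 sample 3 being the shallowest. Mitochondrial genes took 5.18% to 6.00% of counts in Control cells and 4.13% to 4.61% in BRG1 samples. SMARCA4, the transfected gene, had normalised counts of 1439, 1676 and 1538 in Control cells and 108655, 79075 and 78589 in BRG1 samples, plasmid transcripts included. SMARCA2, the paralog silent in SCCOHT, stayed at 3.8 to 23.1 in Control cells and 6.0 to 35.7 in BRG1 samples (DESeq2 adjusted p = 0.831). A normalised count is the estimated count divided by the DESeq2 size factor of its sample. A gene was called when its DESeq2 adjusted p was under 0.05 over all genes tested.

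NTS was among the most abundant transcripts of COV434 cells. It lies at chr12:85874295-85882992 on the plus strand (GENCODE 44), and no other annotated gene shares its exons. Its normalised count was 404009, 419185 and 489473 in Control samples 1 to 3 and 98632, 206566 and 292760 in BRG1 samples 1 to 3. Every BRG1 sample was below every Control sample, and BRG1 sample 1 was the lowest. The mean was 437560 ± 45598 (SD, n = 3) in Control cells and 199320 ± 97267 (SD, n = 3) in BRG1 samples, a log2 fold change of -1.13 (standard error, SE, 0.35). Between samples of the same replicate number, the BRG1 level was 0.244, 0.493 and 0.598 of the Control level. With the replicate number as a block this change was -1.26 (SE 0.20).

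The same pattern was seen before any size factor was applied. NTS took 0.874% of all estimated counts in Control sample 1 (95% Wilson interval 0.871 to 0.877), 0.885% in sample 2 (0.882 to 0.888) and 1.05% in sample 3 (1.048 to 1.053). In BRG1 samples 1 to 3 it took 0.214% (0.213 to 0.215), 0.457% (0.455 to 0.459) and 0.660% (0.658 to 0.663). These intervals cover counting error only and are far narrower than the spread between samples. The group means were 0.936% ± 0.099 and 0.444% ± 0.224 (SD, n = 3 each). By count, NTS was gene number 4, 4 and 3 of its library in Control samples and number 26, 10 and 5 in BRG1 samples. The BRG1 sample with the most SMARCA4, sample 1, had the least NTS, while samples 2 and 3 differed in NTS at nearly the same SMARCA4 level.

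**Figure D1:**
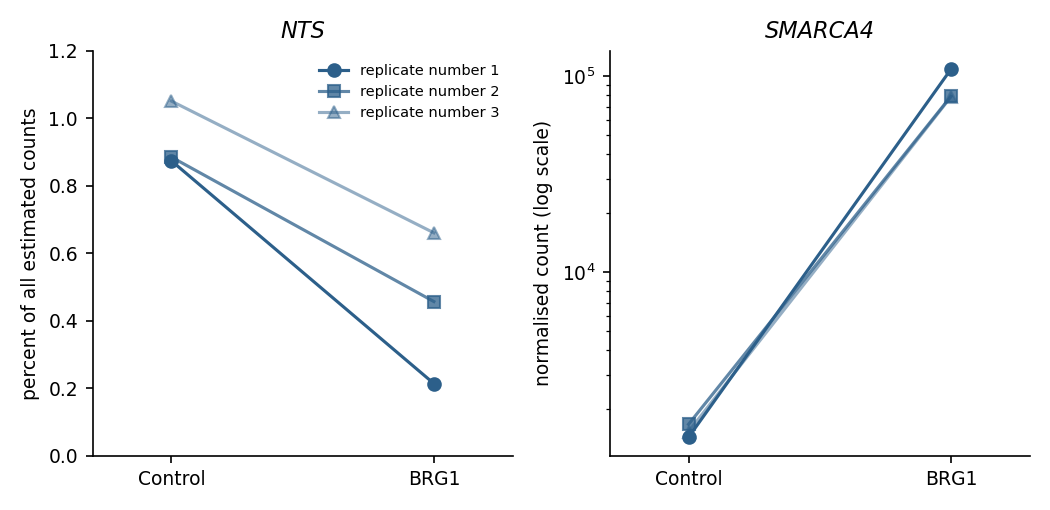
NTS as a percent of all estimated counts (left, linear axis) and SMARCA4 as normalised count (right, log axis) in Control cells and BRG1 samples, with 1 line for each replicate number. All 3 NTS lines go down, from between 0.874% and 1.05% to between 0.214% and 0.660%, and all 3 SMARCA4 lines go up.

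The receptor gene NTSR1 (chr20:62708836-62762771) was at or below 3 counts in every library, which was taken as the floor. Its normalised counts were 0, 1.2 and 0 in Control cells and 0.7, 0.8 and 0 in BRG1 samples, and no fold is given. NTSR2, the other G protein-coupled neurotensin receptor, had 0 counts in every sample, where 3 counts is the limit that a count of 0 allows. The sorting receptors were expressed. SORT1, whose product sortilin also binds neurotensin, had 2993, 2359 and 2706 normalised counts in Control cells and 3161, 2351 and 2357 in BRG1 samples (DESeq2 adjusted p = 0.963). SORL1, a relative of sortilin, had 1420, 1339 and 2009 in Control cells and 1069, 945 and 1372 in BRG1 samples, and the groups overlapped. SORL1 was not called (log2 fold change -0.50, SE 0.24, DESeq2 adjusted p = 0.189) but was called lower with the replicate block (adjusted p = 0.00081 with DESeq2 and 0.0080 with edgeR) and without BRG1 replicate 3 (DESeq2 adjusted p = 0.0355).

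The granins are acidic proteins that pack peptides into dense-core granules. CHGA encodes chromogranin A (chr14:92923150-92935285) and had 341, 206 and 327 normalised counts in Control cells and 287, 196 and 302 in BRG1 samples. The groups overlapped over nearly their whole range. The log2 fold change was -0.16 (SE 0.29, DESeq2 adjusted p = 0.865), and it was 0.01 without BRG1 replicate 2.

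CHGB encodes chromogranin B (chr20:5911510-5925353) and had 657, 1119 and 1387 normalised counts in Control cells and 234, 631 and 1118 in BRG1 samples. The groups overlapped, but within each replicate number the BRG1 sample was the lower, at 0.357, 0.564 and 0.806 of the Control level. The log2 fold change was -0.68 (SE 0.49), and CHGB was not called (adjusted p = 0.509 with DESeq2 and 0.550 with edgeR). With the replicate number as a block it was -0.87 (SE 0.23), and CHGB was called lower (adjusted p = 0.00155 with DESeq2 and 0.0322 with edgeR). Without BRG1 replicate 3 it was also called lower, at -1.29 with a DESeq2 adjusted p of 0.0263, and without BRG1 replicate 1 or Control replicate 3 the change shrank to -0.27 or -0.43.

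SCG2 encodes secretogranin II, the precursor of secretoneurin (chr2:223596940-223602361, minus strand). It had 101, 128 and 176 normalised counts in Control cells and 56.6, 100.5 and 161 in BRG1 samples. Each BRG1 sample lay below the Control sample of its number, at 0.560, 0.786 and 0.914 of its level, yet the groups overlapped. SCG2 was not called without the block (log2 fold change -0.37, SE 0.44, DESeq2 adjusted p = 0.761) or with it (adjusted p = 0.456). The change was -0.06 without BRG1 replicate 1, -0.12 without Control replicate 3 and -0.79 without BRG1 replicate 3.

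SYP encodes synaptophysin, a membrane protein of small synaptic-like vesicles (chrX:49187815-49200218, minus strand). It had 3136, 2268 and 3057 normalised counts in Control cells and 1926, 1640 and 2076 in BRG1 samples. The highest BRG1 sample was below the lowest Control sample. The mean was 2820 ± 480 (SD, n = 3) in Control cells and 1881 ± 221 (SD, n = 3) in BRG1 samples, a log2 fold change of -0.59 (SE 0.19, DESeq2 adjusted p = 0.0216). The edgeR quasi-likelihood test did not call it (adjusted p = 0.0582), and both tools called it with the replicate block (adjusted p = 6.6e-06 with DESeq2 and 0.0036 with edgeR). Within replicate numbers the BRG1 level was 0.614, 0.723 and 0.679 of the Control level. The DESeq2 call was lost without Control replicate 1 (adjusted p = 0.189), without Control replicate 3 (0.154), without BRG1 replicate 1 (0.0693) and without BRG1 replicate 2 (0.184).

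ENO2 encodes the neuron-specific gamma subunit of the glycolytic enzyme enolase (chr12:6913745-6923698). Its normalised counts were 96.2, 164 and 206 in Control cells and 66.7, 171 and 160 in BRG1 samples. The groups overlapped, and the BRG1 sample was the higher in replicate number 2. ENO2 was not called (log2 fold change -0.24, SE 0.45, DESeq2 adjusted p = 0.870). The difference changed sign without Control replicate 3 (0.02) and without BRG1 replicate 1 (0.09). Of the other enolases, ENO1, the form found in most cells, had 43139 ± 2508 (SD, n = 3) normalised counts in Control cells and 44793 ± 3772 in BRG1 samples, and ENO3, the muscle form, 141 ± 30.8 and 169 ± 46.4. Neither was called (DESeq2 adjusted p = 0.907 and 0.785).

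NCAM1, the neural cell adhesion molecule, was the member that rose. It lies at chr11:112961275-113278436 on the plus strand and had 2.4, 31.7 and 18.9 normalised counts in Control cells and 91.4, 141 and 157 in BRG1 samples. Every BRG1 sample was above every Control sample, and Control sample 1 was close to 0. The mean was 17.7 ± 14.7 (SD, n = 3) in Control cells and 130 ± 34.1 (SD, n = 3) in BRG1 samples, a log2 fold change of 2.87 (SE 0.64, adjusted p = 0.00012 with DESeq2 and 0.0322 with edgeR). It was called without each of the 6 samples in turn. Other annotated genes cover 7.89% of its exon bases, and the libraries do not keep strand. ST8SIA2, a sialyltransferase that adds polysialic acid to NCAM1, rose as well, from 4.9, 9.4 and 3.0 to 76.2, 54.0 and 22.4 normalised counts (log2 fold change 3.19, SE 0.73, DESeq2 adjusted p = 0.00017). ST8SIA4, a related gene of the same list named after its values were seen, did not share this rise. It had 1.2, 8.2 and 9.8 in Control cells and 0.7, 33.2 and 0 in BRG1 samples, and was not called (DESeq2 adjusted p = 0.882).

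INSM1, a zinc finger transcription factor of neuroendocrine cells (chr20:20368104-20370949), was at the floor in both groups. Its normalised counts were 2.4, 0 and 1.5 in Control cells and 1.5, 1.7 and 1.5 in BRG1 samples, and no fold is given.

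**Figure D2:**
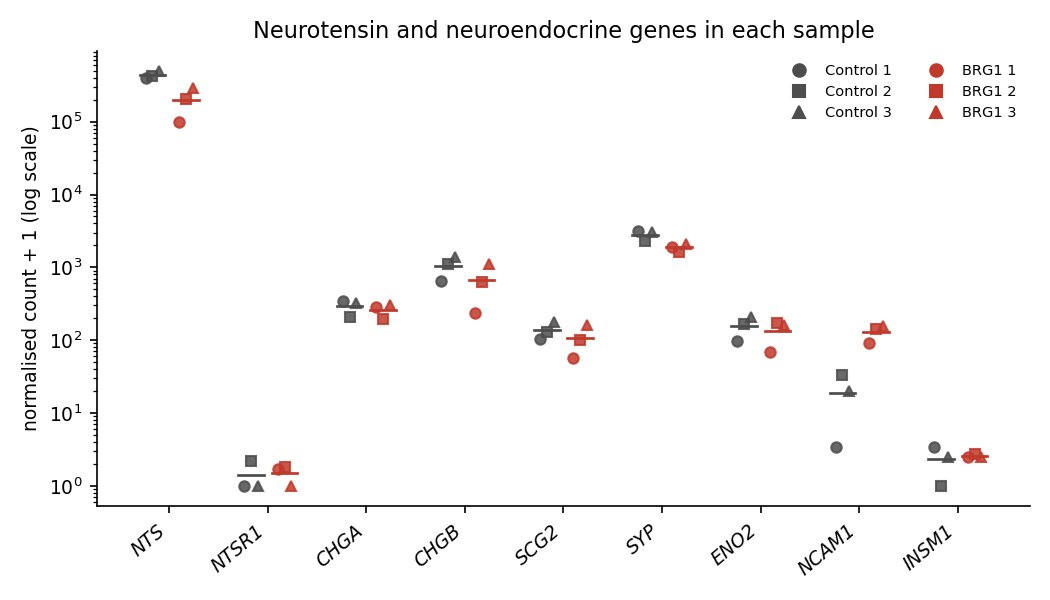
Normalised count plus 1 on a log axis for the 9 genes in each Control (grey) and BRG1 (red) sample, with the symbol giving the replicate number and the bar the group mean. NTS sits at 98632 to 489473, NTSR1 and INSM1 sit at or below 3, and the groups are apart in NTS, SYP and NCAM1.

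Of the 9 genes, 7 entered the DESeq2 test and NTSR1 and INSM1 did not. NCAM1 was called higher, beside 11.0% of all 15991 genes tested. SYP and NTS passed the threshold in the lower direction, beside 1.84% of all genes. The count for NTS was fixed by how it was picked, so nothing is read from it. By edgeR 1 of the 7 was higher and 0 were lower, beside 9.57% and 1.02% of all genes. At an unadjusted edgeR p under 0.05, 2 of the 7, SYP and NTS, were lower, beside 869 of all 14246 genes tested. NTS is in this 2 by how it was picked. With the replicate block 1 was higher and 3 were lower by both tools. The background was then 13.4% higher and 6.62% lower with DESeq2, and 13.7% and 5.68% with edgeR. The median log2 fold change of the 7 was -0.37 against -0.01 for all 16452 genes above the floor in either group, with 6 of the 7 below 0. NTS counts in this median by how it was picked, and without it the median of the 6 was -0.30, with 5 below 0.

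**Figure D3:**
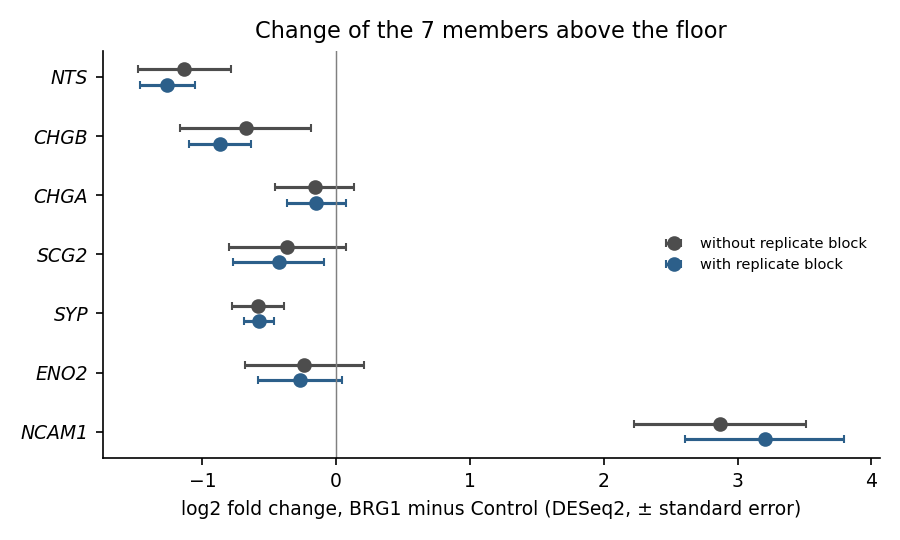
Log2 fold change of BRG1 over Control for the 7 genes above the floor, with DESeq2 standard errors, without (grey) and with (blue) the replicate number as a block. NCAM1 lies at 2.87, the other 6 lie below 0, and the block narrows the bars of CHGB from 0.49 to 0.23.

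Levels of different genes were compared per kilobase of the canonical GENCODE transcript. On this scale NTS had 353150 ± 36802 (SD, n = 3) normalised counts per kilobase in Control, followed by SYP at 1165 ± 198, CHGB at 428 ± 150, CHGA at 147 ± 37.3, ENO2 at 67.8 ± 24.1, SCG2 at 55.5 ± 15.7 and NCAM1 at 3.04 ± 2.52. The samples of ENO2 and SCG2 overlapped, and those of NCAM1 overlapped with those of INSM1. In BRG1 samples the order was the same, from NTS at 160870 ± 78504 and SYP at 777 ± 91.4 to NCAM1 at 22.3 ± 5.87. There CHGB overlapped with CHGA, ENO2 with SCG2, and SCG2 with NCAM1. The large amount of the neurotensin transcript thus stood beside chromogranin transcripts at far lower levels and INSM1 at the floor.

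The profile of NTS over the 6 samples was compared with that of the 11685 genes whose mean normalised count was at least 100. Likeness was the root mean square difference of log2(normalised count + 1) after each profile was centred on its mean, and it is a description of 6 points that share their libraries. The nearest genes were CA14, a membrane-bound carbonic anhydrase (0.17), CLCN4, a chloride and proton exchanger (0.18), RINL (0.23), the TMEM189-UBE2V1 readthrough (0.26) and PRR11 (0.26). CA14 had 718, 849 and 933 normalised counts in Control cells and 182, 504 and 681 in BRG1 samples. Its lower level and its order of samples follow from its choice by likeness to NTS, so nothing is read from them. Of these nearest genes only PRR11 was called, lower, by DESeq2 (adjusted p = 0.0055), and the others were not (0.119 to 0.212). Among the members CHGB was gene number 43 by likeness (0.38), SCG2 number 157 (0.45), ENO2 number 815 (0.58) and SYP number 935 (0.60), and CHGA was number 5815 (0.80).

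Other genes of the pathway were grouped by role. The 4 other granins tested by DESeq2, VGF, PCSK1N, SCG3 and SCG5, had 0 calls in either direction, with or without the block. Of these, edgeR tested 3, all but SCG5, and also called 0. Without the block, the share of all genes called higher was 11.0% with DESeq2 and 9.57% with edgeR. The share called lower was 1.84% and 1.02%. For so few genes a count of 0 is near these shares, so nothing is read from it. At an unadjusted p under 0.05 the count was 0 with DESeq2 and 1, higher, with edgeR. Over all genes, edgeR had 2065 of 14246 higher at that threshold. PCSK1N, which encodes the convertase inhibitor proSAAS, was the most abundant at 1695 ± 525 (SD, n = 3) normalised counts in Control cells and 1537 ± 90.1 in BRG1 samples, and VGF had 37.7 ± 6.03 and 54.3 ± 13. Their median log2 fold change was 0.59, but 0.205 with at least 10 counts in 3 samples and 0.37 without Control replicate 1.

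Of 12 prohormone processing enzymes tested by DESeq2, 2 rose and 0 fell, beside 11.0% and 1.84% of all genes, so the counts are near the background. By edgeR 2 of 11 rose and 0 fell, beside 9.57% and 1.02%. PCSK5, a convertase, had 340, 359 and 478 normalised counts in Control cells and 961, 949 and 828 in BRG1 samples (log2 fold change 1.22, SE 0.20, DESeq2 adjusted p = 3e-08). CPE, the carboxypeptidase that trims the cut peptides, had 260, 379 and 398 in Control cells and 617, 764 and 912 in BRG1 samples (log2 fold change 1.14, SE 0.25, DESeq2 adjusted p = 7.6e-05). Both therefore rose in samples in which NTS was lower. FURIN and PAM, the most abundant enzymes of the list, were not called (DESeq2 adjusted p = 0.311 and 0.644), though FURIN was called higher without BRG1 replicate 3 (0.0364). No enzyme was lower at an unadjusted p under 0.05 with either tool. Over all genes, 884 of 18096 with a count were by DESeq2 and 869 of 14246 by edgeR. With the block, MME, the peptidase neprilysin, which also cleaves neurotensin, was called lower (adjusted p = 0.0043 with DESeq2 and 0.018 with edgeR). MME is named after its values were seen.

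Among genes of regulated secretion, 2 of 31 tested rose by DESeq2 and 1 of 26 by edgeR, beside 11.0% and 9.57% of all genes. These counts are small and near the background, so nothing is read from them. RAB3B, a small GTPase of secretory vesicles, had 821, 585 and 516 normalised counts in Control cells and 4950, 2122 and 1191 in BRG1 samples (log2 fold change 2.11, SE 0.45, DESeq2 adjusted p = 4.5e-05). It was not called by limma-voom (adjusted p = 0.0633), which left 0 of the list called higher. RPH3A, a Rab3 effector named after its values were seen, was at the floor in Control cells and at 10.8 ± 4.62 (SD, n = 3) in BRG1 samples, at least 3.43-fold higher than 3 counts per library. DESeq2 did not call it under the replicate block (adjusted p = 0.0552) or without any sample other than Control replicate 2 (0.0552 to 0.173). None fell by DESeq2 or edgeR, beside 1.84% and 1.02% of all genes. At an unadjusted p under 0.05, 2 were lower with each tool. Over all genes, 884 of 18096 with a count were lower by DESeq2 and 869 of 14246 by edgeR. With the block 4 of 31 fell by DESeq2 and 3 of 26 by edgeR, beside 6.62% and 5.68% of all genes. UNC13A, a priming factor of vesicle release and among the most abundant genes of the list, was one of them, with 8511, 9642 and 12418 normalised counts in Control cells and 3840, 6849 and 10599 in BRG1 samples (DESeq2 adjusted p = 0.437 without and 0.0020 with the block). Without BRG1 replicate 3 the DESeq2 count lower was 3, UNC13A included (adjusted p = 0.0099). The vesicle SNARE gene VAMP2 was not called (DESeq2 adjusted p = 0.880). The median log2 fold change of these genes was -0.05, and -0.11 to -0.01 under the alternatives.

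Of the transcription factors of neuroendocrine cells, 4 of 12 tested rose by DESeq2, beside 11.0% of all genes, and 1 of 7 tested rose by edgeR, beside 9.57%. None fell by either tool, beside 1.84% and 1.02%. With the block 4 of 11 rose by DESeq2 and 3 of 7 by edgeR, beside 13.4% and 13.7% of all genes. Without BRG1 replicate 1 or BRG1 replicate 2 the DESeq2 count was 2 or 1. LHX2, a LIM homeobox factor, had 1132, 1129 and 1316 normalised counts in Control cells and 1831, 1620 and 1546 in BRG1 samples (log2 fold change 0.48, SE 0.15, DESeq2 adjusted p = 0.0154). ONECUT2 had 130, 158 and 175 in Control cells and 235, 311 and 319 in BRG1 samples (log2 fold change 0.89, SE 0.24, DESeq2 adjusted p = 0.0028). Neither was called by edgeR (adjusted p = 0.0636 and 0.0607). The LHX2 call was lost without Control replicate 1 or 2 or BRG1 replicate 1 or 2 (DESeq2 adjusted p between 0.0843 and 0.149), and that of ONECUT2 without BRG1 replicate 2 (0.074). SOX11 rose from 3.02 ± 2.60 to 39.2 ± 26.4 (SD, n = 3 each) and was called by both tools, but not without BRG1 replicate 2 (DESeq2 adjusted p = 0.0983). POU2F3, the factor of tuft cells, was at the floor in Control cells and at 39.7 ± 34.4 in BRG1 samples, at least 12.6-fold higher than 3 counts per library, and lost its call without BRG1 replicate 1 (DESeq2 adjusted p = 0.0511). No factor was lower at an unadjusted p under 0.05 with either tool, beside 884 of 18096 genes by DESeq2 and 869 of 14246 by edgeR. The median log2 fold change of these genes was 0.97, but 0.48 with genes at the floor set at their bound, 0.47 with edgeR or limma-voom and 0.12 with at least 10 counts in 3 samples.

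REST, the repressor of neuronal and neuroendocrine genes, and its cofactors had 0 of 12 calls by DESeq2 and by edgeR. At an unadjusted p under 0.05 the count was also 0 with either tool. The share of all genes called higher was 11.0% with DESeq2 and 9.57% with edgeR. The share called lower was 1.84% and 1.02%. For 12 genes a count of 0 is near these shares, so nothing is read from it. CTDSP2, a small phosphatase that acts with REST, had 11896 ± 1402 and 11486 ± 746 (SD, n = 3 each) normalised counts. HDAC2, a histone deacetylase, had 10612 ± 520 in Control cells and 8304 ± 1750 in BRG1 samples and was called lower with the block by DESeq2 alone (adjusted p = 0.0181, against 0.0625 with edgeR) and without BRG1 replicate 3 (0.0189). The median log2 fold change of these genes was -0.21, and 1 of 12 was above 0.

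**Figure D4:**
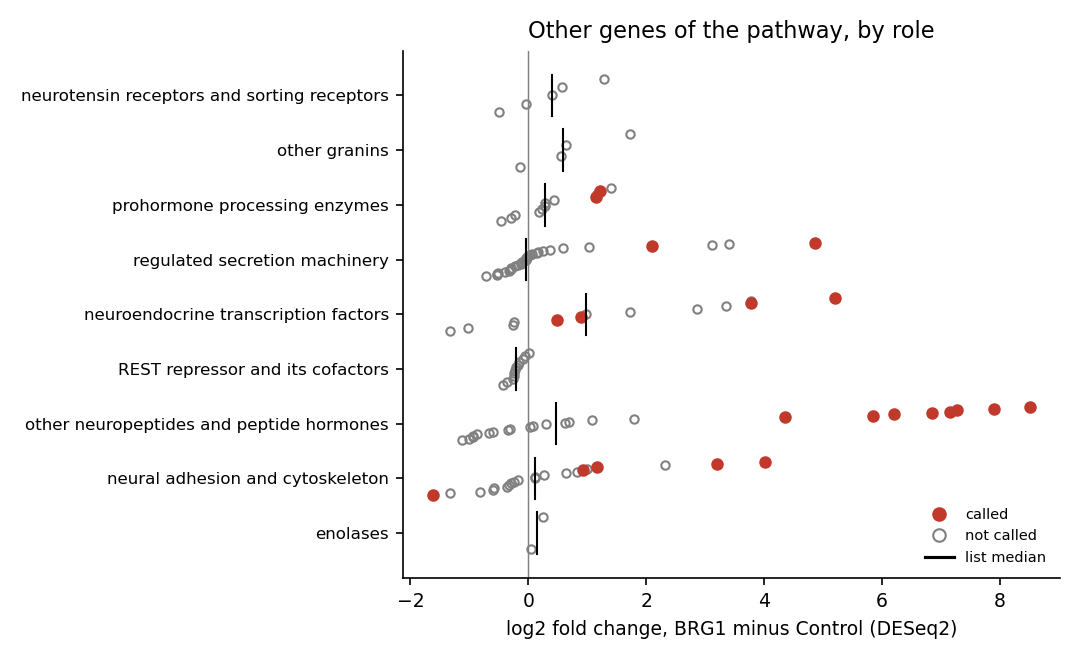
DESeq2 log2 fold change of BRG1 over Control for each gene above the floor in 9 lists of the pathway, with filled points for genes called and a bar at the list median. Calls lie mainly to the right of 0, with 8 in the list of other peptide genes, and points above 5 include genes at the floor in Control, whose fitted value is no bound.

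Several other genes of peptide hormones and neuropeptides were called higher, and most were not called. Of 24 tested by DESeq2, 8 rose and 0 fell, beside 11.0% and 1.84% of all genes. Of 19 tested by edgeR, 7 rose and 0 fell, beside 9.57% and 1.02%. No gene was lower at an unadjusted p under 0.05 with either tool, beside 884 of 18096 genes by DESeq2 and 869 of 14246 by edgeR. The fitted log2 fold change was above 0 in 15 and below 0, as for NTS, in 9 of the 24. EDN1, the endothelin precursor, had 609, 430 and 273 normalised counts in Control cells and 15979, 8474 and 2251 in BRG1 samples (log2 fold change 4.35, SE 0.79, DESeq2 adjusted p = 7.6e-07). CCK, the cholecystokinin gene, had 3.7, 0 and 6.1 in Control cells and 854, 454 and 310 in BRG1 samples (log2 fold change 7.26, SE 0.63, DESeq2 adjusted p = 2.3e-28). Another annotated gene covers 32.5% of the exon bases of CCK. EDN3, NPPB and APLN, which encode endothelin 3, B-type natriuretic peptide and apelin, were at the floor in Control. In BRG1 samples they were at least 21.7-fold, 105-fold and 76.8-fold higher than 3 counts per library. The other calls were KISS1, PDYN and GAST, named after their values were seen, and GAST was not called without BRG1 replicate 1 (DESeq2 adjusted p = 0.145). TAC1, the substance P precursor, was not called, with 357, 727 and 829 in Control cells and 223, 465 and 819 in BRG1 samples (DESeq2 adjusted p = 0.796).

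The normalised counts of the other 34 peptide genes with a count summed to 1373, 1608 and 1488 in Control cells and 19407, 10950 and 4570 in BRG1 samples. NTS exceeded that sum 294, 261 and 329 times in Control cells and 5.08, 18.9 and 64.1 times in BRG1 samples. EDN1 alone made up 15979, 8474 and 2251 of the sums in BRG1 samples. Without EDN1, NTS exceeded the sum 529, 356 and 403 times in Control cells and 28.8, 83.4 and 126 times in BRG1 samples. NTS was thus above all other listed peptide genes together in every sample, by less in BRG1 samples and least in BRG1 sample 1. The median log2 fold change of these genes was 0.465, and 0.194 with genes at the floor set at their bound.

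**Figure D5:**
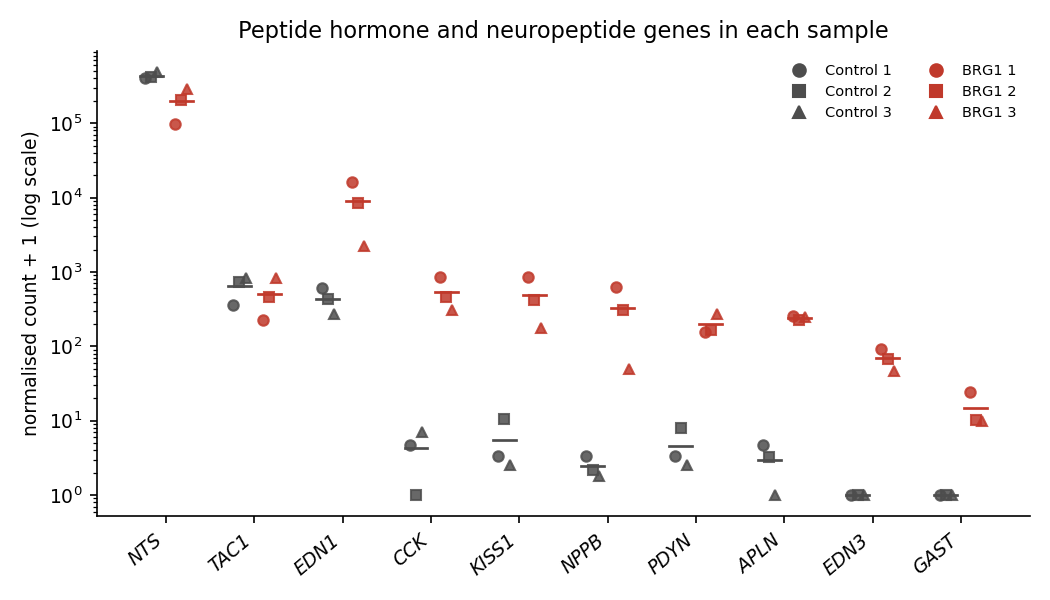
Normalised count plus 1 on a log axis of NTS, TAC1 and the 8 other peptide genes called higher, in each Control (grey) and BRG1 (red) sample, with symbols for replicate numbers and bars for group means. Among the genes shown, only NTS has every BRG1 sample below every Control sample, which follows largely from choosing genes called higher. PENK and ADCYAP1 of the same list are not shown and are named after their values were seen. They share this trait at 5.8 to 14.6 and 7.5 to 18.8 normalised counts, and neither was called (DESeq2 adjusted p = 0.556 and 0.680). NTS stays above EDN1, which reaches 15979 in BRG1 sample 1.

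Among genes of neural adhesion and cytoskeleton, 4 of 21 tested rose and 1 fell by DESeq2, beside 11.0% and 1.84% of all genes. By edgeR 3 of 17 rose and 1 fell, beside 9.57% and 1.02%. With the block 3 of 20 fell by DESeq2 and 2 of 17 by edgeR, beside 6.62% and 5.68% of all genes. Without Control replicate 2 DESeq2 called 2 lower. L1CAM, an adhesion molecule of the same superfamily as NCAM1, had 296, 204 and 251 normalised counts in Control cells and 6296, 3770 and 2072 in BRG1 samples (log2 fold change 4.02, SE 0.37, DESeq2 adjusted p = 1.8e-25). MAP2, a dendritic microtubule protein, had 355 ± 81.0 in Control cells and 795 ± 175 (SD, n = 3 each) in BRG1 samples (DESeq2 adjusted p = 0.00012). CNTN1, the adhesion molecule contactin 1, fell from 104, 84.4 and 74.2 to 18.9, 32.4 and 35.8 (log2 fold change -1.61, SE 0.40, DESeq2 adjusted p = 0.00076). STMN2, a neuronal stathmin and the most abundant gene of the list, had 9857 ± 2444 and 8072 ± 3420 and was not called (DESeq2 adjusted p = 0.737), but was lower with the block by DESeq2 alone (0.028). The adhesion genes NCAM1, L1CAM and CNTN1 thus did not move one way. The median log2 fold change of these genes was 0.11, and its sign was not stable. It was -0.185 with edgeR, -0.07 with limma-voom, -0.27 and -0.29 with the block in DESeq2 and edgeR, and -0.205 with at least 10 counts in 3 samples. Leaving out Control replicate 2, BRG1 replicate 2 or BRG1 replicate 3 also turned it, to -0.14, -0.05 and -0.04.

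Markers of other cell types were read beside these results. Of 13 granulosa cell markers, 12 had a count. Their normalised counts summed to between 1052 and 1239 in Control cells and between 1925 and 3113 in BRG1 samples. By DESeq2, 4 of 9 tested were called higher and 0 lower, beside 11.0% and 1.84% of all genes. By edgeR 3 of 6 were higher and 0 lower, beside 9.57% and 1.02%, and limma-voom left 2 higher. The 4 included CYP11A1, at the floor in Control cells and named after its values were seen. Its DESeq2 call was lost with the block (adjusted p = 0.117) and without each sample in turn (0.0740 to 0.453). CYP19A1 (aromatase), INHBB and INHBA (inhibin subunits) were among those called, while the defining factor FOXL2 was at 0 or 1.2 and AMHR2 at 0 in every sample. HSD17B1, the most abundant with INHBA, was not called. Another annotated gene covers 80.9% of its exon bases, and the libraries do not keep strand, so its counts and their part in the sum are uncertain. Markers of blood, endothelial, stromal and liver cells summed to between 2467 and 3408 in Control cells and between 6364 and 8192 in BRG1 samples. Most of that difference came from VWF, at 44.8 ± 32.0 and 3498 ± 238 (SD, n = 3 each). The leukocyte marker PTPRC was at 505 ± 167 and 520 ± 185, the fibroblast marker DCN at 381 ± 11.4 and 311 ± 90.4, and the liver marker ALB at 57.5 ± 13.1 and 54.0 ± 31.4. These 3 and COL1A1 are named after their values were seen. Of 8 tested, VWF and PDGFRB rose by DESeq2 and by edgeR, beside 11.0% and 9.57% of all genes. None fell by either tool, beside 1.84% and 1.02%. CD68 was called with the block (DESeq2 adjusted p = 0.0013) or without Control replicate 1 (0.0093) but not otherwise (0.217). Other annotated genes cover 85.6% of its exon bases, so its counts cannot be credited to CD68 alone. COL1A1 was called without Control replicate 1 alone (0.0128), which made the count 4. The lymphocyte markers CD3E and MS4A1 were at 0 or 0.8 in every sample. The part of these genes in the results above was not tested.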

How the data were processed

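RNA-seq libraries of 3 Control and 3 BRG1 samples were made by the authors from 500 ng of RNA with a kit that does not keep strand and read from both ends for 78 bases. Per the labels and the study's methods, the authors aligned reads to hg38 with STAR 2.5.3a, quantified transcripts with Salmon 0.8.2 and collapsed them to genes by tximport. Values were deposited as estimated counts for each gene symbol, scaled by transcript length and library size, not divided by depth. Reads that fit several genes are shared between them by estimation, so near-identical copies and overlapping or antisense genes are uncertain. The submitters' processing notes also list DESeq2 1.22.2.

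Estimated counts were rounded. Of 19899 genes 18096 had a count, and no column without a sample was present. BRG1 was compared with Control by the Wald test of DESeq2 1.42.0 in R 4.3.3, with median-ratio size factors, independent filtering and Benjamini-Hochberg adjustment over all genes, as the study names DESeq2 but no formula. An empty adjusted p from DESeq2 was kept empty. Alternatives were edgeR 4.0.16 (quasi-likelihood), limma-voom 3.58.1, TMM factors, at least 10 counts in 3 samples, no independent filtering, the replicate number as a block in DESeq2 and edgeR, and leaving out each sample. The fits were run once on simulated data with no replicate effect and with changes drawn at random in either direction. There DESeq2 called more unchanged genes than its threshold names and edgeR did not. The data had correlated replicate numbers and far more genes called higher than lower. The simulation therefore does not show how the fits, with or without the block, behave on them. The study states no pairing of samples by number. Over genes averaging 100 or more, deviations from the group means correlated at 0.52, 0.52 and 0.61 within numbers 1, 2 and 3. They correlated at 0.07 or below between numbers, but deviations within a group sum to 0, so this follows in part from the values within numbers. The series describes the 3 replicates as biological.

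A group at 3 counts or fewer in every library was at the floor, and folds against it were computed against 3 counts per library. Intervals are 95% Wilson intervals. Positions are from GENCODE 44 on hg38 and promoters from RefSeq. The members, lists and tests were chosen with earlier results of these data known. Named were all members, from each list up to 4 called genes with the largest change and a mean of at least 20 and the 2 most abundant genes, the 5 genes nearest to NTS, SMARCA4 and SMARCA2. Other names are marked as chosen after their values were seen.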

Additional observations from a re-analysis of the deposited data

How the results depend on the processing

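DESeq2 called 294 genes lower, against 146 for edgeR, 169 for limma-voom, 1035 for DESeq2 with the replicate block and 809 for edgeR with it. Leaving out BRG1 replicate 2 gave 117, the fewest, and leaving out BRG1 replicate 3 gave 596, the most. The 1764 genes called higher stayed within 1326 to 2095 under all alternatives. Members called lower, 2, became 0 with edgeR and 0 with limma-voom, and 3 with the replicate block in either tool. They were 0 to 3 when each sample was left out, at 0 without Control replicate 3 or BRG1 replicate 2. The unadjusted count lower with edgeR was 2, beside 869 of all 14246 genes tested. All genes were called lower in 1.84% with DESeq2, 1.02% with edgeR, and 6.62% and 5.68% with the block. NTS is in the 2 and the 3 by how it was picked, so nothing is read from its part. The others were SYP in the main fit, and SYP and CHGB with the block. NCAM1 was called in all 13 alternatives. The NTS log2 fold change was -1.52 without BRG1 replicate 3 and -0.81 without BRG1 replicate 1, the extremes. The members' median, -0.37, ranged from -0.66 without BRG1 replicate 3 to -0.12 without Control replicate 3. CHGA, at -0.359 to 0.012 when each sample was left out, changed sign without BRG1 replicate 2, and ENO2, at -0.491 to 0.088, changed sign without Control replicate 3 (0.018) and without BRG1 replicate 1 (0.088). With DESeq2 the block changed the call of CHGB and of no other member tested, and beyond the genes given above it changed no call of a gene named in the lists. Setting genes at the floor at their bound was added after seeing the data. The causes were not tested. NTSR1 and INSM1 were too shallow to compare at this depth.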

Other observations

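BRG1 sample 1 stood at the edge of its group for most members above the floor and most other peptide genes called higher. It held the lowest BRG1 value in 5 of the 7 members above the floor (NTS, CHGB, SCG2, ENO2 and NCAM1). Of these 5, NTS was picked for its decrease and NCAM1 rose, and no such share was computed over all genes above the floor. Sample 1 held the highest BRG1 value in 7 of the 8 other peptide genes called higher, all but PDYN. KISS1 had 860, 418 and 178 normalised counts in BRG1 samples 1 to 3, and NPPB 631, 308 and 49.3. Of all 1764 genes called higher, 1348 (76.4%) had their highest BRG1 value in sample 1, while of the 294 called lower 122 (41.5%) had their lowest there and 136 (46.3%) in sample 2. SMARCA4 was also highest in sample 1, at 108655 against 79075 and 78589. This order was noticed in the values, rests on 3 samples and was not tested.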
